A study of Mus musculus with 2 samples.

Results

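Adipocyte nuclei were a small population in mouse cardiac tissue profiled by single-nucleus RNA sequencing, in which RNA is read from isolated nuclei rather than whole cells. A nucleus counted as an adipocyte nucleus when its barcode held at least 200 genes, had at most 30% mitochondrial UMIs, and carried UMIs (unique molecular identifiers, each standing for 1 captured RNA molecule) of at least 3 of 9 adipocyte markers. The markers were Adipoq, Plin1, Cidea, Ucp1, Pck1, Gpd1, Scd1, Aspg and Cidec. No more than 1 UMI in all was allowed of Pdgfra, Col1a1, Cdh5, Ptprb, Csf1r, Ptprc and Msln, which mark fibroblasts, endothelial cells, leukocytes and mesothelium. This left 219 adipocyte nuclei of 26334 deposited barcodes, 80 of 15077 in the CF-KI library and 139 of 11257 in the control library. They were divided by whether they held a UMI of Ucp1 or Cidea, the genes linked with brown fat: 48 CF-KI and 84 control nuclei did, 32 and 55 did not.

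Both libraries came from tamoxifen-injected male C57Bl6/J mice aged 3.5 months that carried Tcf21-MerCreMer, a tamoxifen-inducible Cre under the fibroblast gene Tcf21. The CF-KI genotype was Tcf21-MerCreMer;Nlrp3-A350V/A350V, described as constitutive NLRP3 activation in fibroblasts, and the control genotype was Tcf21-MerCreMer;Nlrp3-WT/WT. According to the submitters, cells without Cre silence the Nlrp3 allele of this model. Each genotype had 1 library, and the number of animals behind it is not stated, so no difference between genotypes has a replicate check and none was tested.

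Adipocytes store triglyceride in lipid droplets coated by perilipins and release it by lipolysis when catecholamines act on beta-adrenergic receptors. White adipocytes mainly store fat and secrete adipokines. Brown adipocytes burn fatty acids in abundant mitochondria, where the uncoupling protein UCP1 turns the proton gradient into heat. Fat lies on the outside of the heart and around the great vessels, and tissue around the thoracic aorta in mice has a brown character. PPARG drives the differentiation of both types, while PPARA, PGC-1 coactivators and cAMP signalling raise the genes of fat oxidation in brown cells.

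The promoters of 4 genes named in the results are printed. Ucp1 UMIs help divide the nuclei, and Plin1 is the lipid droplet coat gene found in the most adipocyte nuclei. Pck1, a glyceroneogenesis enzyme, had a difference between the classes with opposite signs in the libraries. As a selection marker, its values in the classes are affected by the rule. Gk is the glycerol kinase gene of brown fat. Each line holds 300 bases of GRCm38.p6 that run up to and just past the start of the gene, from RefSeq, on the gene's own strand. Ucp1 lies at chr8:83290098-83290397 on the plus strand, Plin1 at chr7:79732727-79733026 on the minus strand, Pck1 at chr2:173152823-173153122 on the plus strand and Gk at chrX:85776770-85777069 on the minus strand. Capitals mark AGGTCA, the nuclear receptor motif, TGACG, the core of the cAMP response element, and TTGCNNAA, the C/EBP motif, on either strand.
Ucp1: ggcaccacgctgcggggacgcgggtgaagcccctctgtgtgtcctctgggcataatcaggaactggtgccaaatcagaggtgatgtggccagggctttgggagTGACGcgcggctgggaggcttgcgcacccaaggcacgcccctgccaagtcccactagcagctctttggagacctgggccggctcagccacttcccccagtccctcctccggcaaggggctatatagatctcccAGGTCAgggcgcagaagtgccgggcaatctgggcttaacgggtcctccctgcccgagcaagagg
Plin1: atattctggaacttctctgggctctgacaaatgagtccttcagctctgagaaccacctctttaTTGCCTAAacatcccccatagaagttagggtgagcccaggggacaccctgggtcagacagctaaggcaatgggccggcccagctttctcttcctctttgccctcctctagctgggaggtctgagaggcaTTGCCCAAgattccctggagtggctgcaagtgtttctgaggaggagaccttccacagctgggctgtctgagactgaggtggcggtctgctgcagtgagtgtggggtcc
Pck1: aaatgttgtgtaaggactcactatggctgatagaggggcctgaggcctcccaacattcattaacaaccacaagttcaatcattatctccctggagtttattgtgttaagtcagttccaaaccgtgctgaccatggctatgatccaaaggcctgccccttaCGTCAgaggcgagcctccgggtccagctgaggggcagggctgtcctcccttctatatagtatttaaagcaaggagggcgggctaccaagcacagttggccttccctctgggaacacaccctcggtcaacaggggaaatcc
Gk: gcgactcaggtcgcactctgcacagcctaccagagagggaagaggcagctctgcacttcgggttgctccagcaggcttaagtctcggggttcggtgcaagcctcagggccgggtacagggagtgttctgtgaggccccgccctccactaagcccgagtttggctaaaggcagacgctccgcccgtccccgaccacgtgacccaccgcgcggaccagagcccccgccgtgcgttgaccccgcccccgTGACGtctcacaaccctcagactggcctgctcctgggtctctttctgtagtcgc
Relative to the start site, Ucp1 held TGACG from base -147 and AGGTCA from base -14. Plin1 held TTGCNNAA from bases -187 and -58, Pck1 held TGACG on the reverse strand at base -90, and Gk held TGACG from base -4. These letters are frequent: of 32851 promoter windows of the same length, 16.3% held AGGTCA, 20.8% TGACG and 10.8% TTGCNNAA. No capitals of one motif overlap those of another in the 4 windows. A window was found for 6 of the 9 selection markers. Of 19 thermogenic genes with a window, 6 held TGACG (Adrb1, Dio2, Fabp3, Gk, Ppara and Ppargc1a) and 3 held AGGTCA. Among 17 lipogenic genes with a window, 7 held AGGTCA. A match describes the letters alone.

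Depth was modest. The libraries held 21603653 UMIs for CF-KI and 18040776 for control. An adipocyte nucleus had 637 to 7892 UMIs (median 1438) in CF-KI and 511 to 6549 (median 1947) in control, against medians of 1064.5 and 1134 for the other kept barcodes. Median mitochondrial UMIs were 4.78% of CF-KI and 0.645% of control adipocyte nuclei, and 12.1% and 3.34% of the other barcodes, so the libraries differed in this measure of RNA quality. The doublet caller Scrublet marked 16.3% of all CF-KI barcodes and 0.933% of control barcodes, and 15 of 80 against 0 of 139 adipocyte nuclei. The expected rates given to it were 12.1% and 9.01%, and its automatic score thresholds were unlike, at 0.272 and 0.491. Leaving doublets out thus removed adipocyte nuclei of CF-KI only. Doublets stayed in, and values without them are given where they differ. The libraries shared 46 deposited barcodes, of which 2 were adipocyte nuclei of the control and none were adipocyte nuclei of CF-KI.

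Adipocyte nuclei made up 0.635% of kept CF-KI barcodes (80 of 12598, 95% exact binomial interval 0.504 to 0.790) and 1.28% of kept control barcodes (139 of 10896, 1.07 to 1.50). The share in CF-KI was lower by a difference of -0.641 percentage points (-0.904 to -0.386). All intervals cover counting error only, not the variation between animals. With a mitochondrial limit of 5% the difference was -0.119 points (41 and 132 nuclei), with an interval of -0.739 to 0.592 that includes 0. After every barcode was thinned to 1000 UMIs it was -0.706 points (65 and 105 nuclei), and at 500 UMIs it was -0.315 points (37 and 64 nuclei), both with intervals below 0. The part of mitochondrial content in the difference was not tested.

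In control the rule's threshold fell within a gradient of adipocyte RNA. In CF-KI the barcodes just outside lay nearer to the other barcodes for 20 further adipocyte genes and for white-biased genes. For lipogenic genes the libraries were more alike. Barcodes with exactly 2 markers, just outside, numbered 67 in CF-KI and 36 in control, and 20 adipocyte genes that the rule did not use summed to 8777 and 10128 CPM in them. CPM here is UMIs of a gene per 1000000 non-mitochondrial UMIs of the pooled nuclei. Nuclei with exactly 3 markers, just inside, numbered 15 and 28, with 16791 and 16907 CPM of the same genes. All kept barcodes other than adipocyte nuclei had 7066 CPM of these genes in CF-KI and 4991 CPM in control. White-biased genes, a list described further on, were at 733 and 4673 CPM with 2 markers and at 2949 and 7791 CPM with 3, so that the control barcodes just outside held much adipocyte RNA. Lipogenic genes, also described further on, were at 1851 and 2145 CPM with 2 markers and at 8182 and 7713 CPM with 3. All kept barcodes other than adipocyte nuclei had 645 and 675 CPM of them. At least 3 markers but 2 or more exclusion UMIs were found in 30 CF-KI and 24 control barcodes, which stayed out. Of the adipocyte nuclei, 12 of 80 and 35 of 139 held the 1 exclusion UMI allowed. The median number of distinct markers in a nucleus was 4 in CF-KI and 5 in control, and the most was 8 and 9.

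Plin1 was the marker found most often, in 68 CF-KI nuclei (85.0%) and 126 of the control (90.6%), at 1331 and 1309 CPM. Pck1 was detected in 59 and 112 nuclei, Gpd1, which makes the glycerol backbone of triglyceride, in 62 and 101, and Scd1, the main fatty acid desaturase, in 62 and 103. These 4 genes lay close together in the libraries, with Pck1 at 1360.3 and 1532 CPM, Gpd1 at 1002 and 850.1 CPM and Scd1 at 1368 and 1148 CPM. Adipoq, the adiponectin gene, was sparser, in 19 and 43 nuclei at 146 and 187 CPM, and Cidec, which helps lipid droplets fuse, was found in 16 and 39 at 161 and 187 CPM. Aspg, an asparaginase gene, was found in 17 nuclei of CF-KI (21.3%) and 48 of the control (34.5%), a difference of -13.3 points (-25.2 to -0.107). Because these genes chose the nuclei, their values describe the selection.

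**Figure D1:**
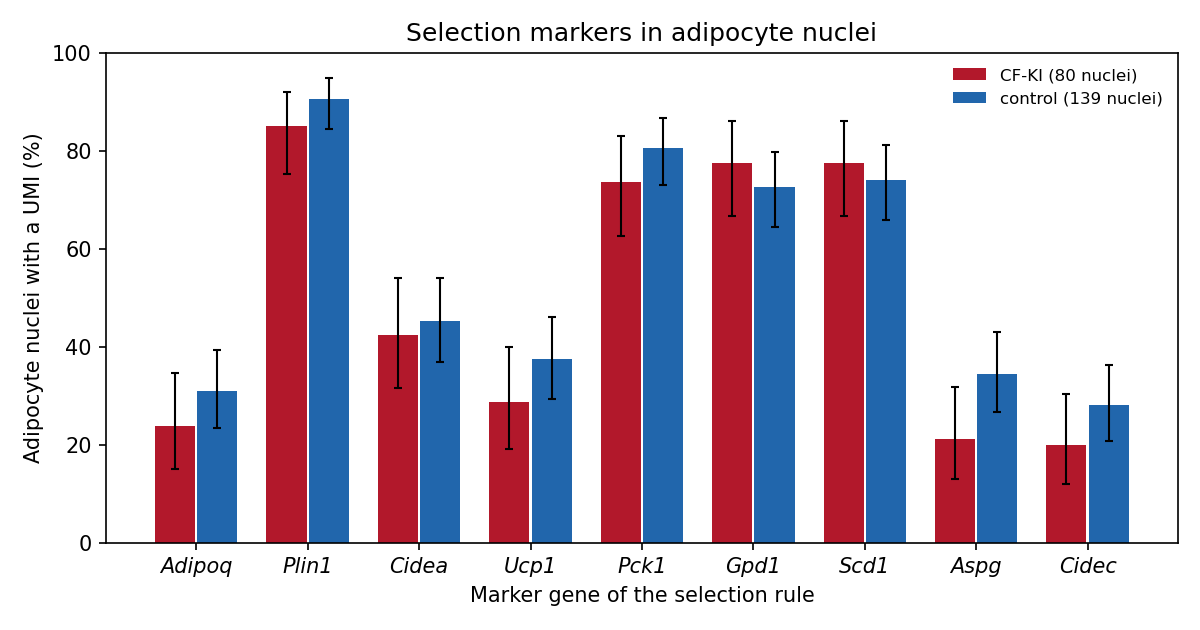
Percentage of adipocyte nuclei with at least 1 UMI of each of the 9 selection markers, as bars for the CF-KI library (80 nuclei) and the control library (139 nuclei), with 95% exact binomial intervals. Plin1 reaches 85.0% and 90.6%, while Adipoq stays at 23.8% and 30.9%.

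Ucp1 was found in 23 nuclei of CF-KI (28.8%) and 52 of the control (37.4%), with at most 3 and 7 UMIs in a nucleus. Its level was 219 CPM (148 to 313) in CF-KI and 362 CPM (295 to 440.2) in control, a log2 ratio of -0.72 (-1.36 to -0.12). Cidea, a lipid droplet protein abundant in brown adipocytes, was found in 34 and 63 nuclei at 366 and 409 CPM, a log2 ratio of -0.16 (-0.67 to 0.33). Ucp1 and Cidea helped choose the nuclei, so their levels and ratios between the libraries describe the selection. Both genes were seen in 9 CF-KI and 31 control nuclei, Ucp1 alone in 14 and 21, and Cidea alone in 25 and 32. Nuclei with either gene made up 60.0% of CF-KI adipocyte nuclei (48.4 to 70.8) and 60.4% of control adipocyte nuclei (51.8 to 68.6), a difference of -0.432 points (-14.6 to 13.4). Thinned to 1000 UMIs, with 3 and 9 shallower nuclei left out, these shares were 42.9% and 43.1%, so a nucleus without a UMI of either gene is not shown to lack their RNA.

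Ucp1 and Cidea UMIs also occurred outside the adipocyte nuclei, more so in CF-KI. Of the other kept barcodes, 3.15% in CF-KI and 1.56% in control held one. Among barcodes with fibroblast markers the shares were 2.57% (1908 barcodes, median 1188 UMIs) and 1.12% (2331 barcodes, median 1265 UMIs). For endothelial markers they were 3.88% (1572, median 1398.5) and 1.92% (1042, median 1188). Cidea stood at 17.3 CPM in other CF-KI barcodes and 8.77 CPM in other control barcodes, and Ucp1 at 10.3 and 2.97 CPM. Since both genes are selection markers, their higher share in adipocyte nuclei follows in part from the rule.

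Genes that took no part in the choice also marked these nuclei as adipocytes. The list of 20 further adipocyte genes was higher in adipocyte nuclei than in the other kept barcodes for 18 of 20 members in either library, and 14 in CF-KI and 15 in control were at least 2-fold higher. Background genes had at least 20 UMIs over the 2 sides and at least 3, observed or expected, in the adipocyte nuclei. Of these, 18.8% of 8230 in CF-KI and 18.0% of 10895 in control were 2-fold higher. A gene with a lower expected count entered only if it reached 3 in these nuclei, which raises this share. The median log2 ratio of the list was 2.92 and 3.21, against 0.06 and 0.03 for the background genes. These nuclei were chosen from the same counts, so this is a description.

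Adrb3, the beta-3 adrenergic receptor that starts lipolysis in rodent fat, stood at 1002 CPM in CF-KI adipocyte nuclei against 5.45 CPM in the other barcodes (log2 ratio 7.52), and at 1047 against 9.27 CPM in control (6.82). Lipe, the hormone-sensitive lipase, stood at 417 against 28.5 CPM and 681 against 29.9 CPM. Pparg, the master regulator of adipocyte differentiation, stood at 183 against 14.9 CPM and 151 against 8.71 CPM. Each of these genes had a log2 ratio of at least 3.61. Acsl1, which activates fatty acids, was abundant at 2933 CPM in CF-KI and 4200.1 CPM in control adipocyte nuclei, against 172 and 203 CPM elsewhere. Lgals12, a galectin of adipocytes, reached 168 and 208 CPM against 1.30 and 2.35 CPM. Genes shared with endothelium stood less apart: Fabp4, a fatty acid binding protein, was at 4944 against 3205 CPM and 3619 against 1494 CPM, and Cd36, a fatty acid translocase, was lower in adipocyte nuclei, at 358 against 752 CPM and 279.8 against 339 CPM.

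Lipogenic genes marked the population more than the core list did. Of 20 genes of fatty acid and triglyceride synthesis, 18 in CF-KI and 19 in control were at least 2-fold above the other barcodes, with a median log2 ratio of 3.54 and 3.41. Fasn, the fatty acid synthase, stood at 1836 against 40.6 CPM in CF-KI and at 1259 against 24.1 CPM in control. Outside the lists, the genes that stood highest above the other barcodes in both libraries were A530053G22Rik, Tmem45b, Ctcflos, Gm3289, Pnpla3, Ankef1, Clstn3, Angptl8, Acaa1b and Klhdc7a, with log2 ratios from 6.09 to 8.27. Pnpla3, a lipid droplet hydrolase, had 6.82 and 6.80, and Angptl8, an insulin-responsive inhibitor of lipoprotein lipase, 6.23 and 7.31. Clstn3, whose locus also encodes a lipid droplet protein of adipocytes, had 6.47 and 7.20. Ctcflos is named as an opposite-strand transcript, and Gm3289 and Acaa1b have related sequences elsewhere, so their counts are less certain.

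The names brown and white could not be checked with the usual lineage genes. Zic1 had 0 UMIs in either library, Lhx8 had 1 in CF-KI and 0 in control, Hoxc8, Hoxc9, Hoxc10 and Sncg had 0, and Lep, the leptin gene, had 0 in CF-KI and 2 in control. With 136739 non-mitochondrial UMIs in CF-KI and 278806 in control, a count of 0 allows up to 21.9 and 10.8 CPM. The classes are therefore called by their rule, nuclei with and nuclei without Ucp1 or Cidea UMIs.

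In the control library, the class with Ucp1 or Cidea carried more of the thermogenic genes. The thermogenic list held 24 genes of brown fat identity and mitochondrial oxidation, without Ucp1 and Cidea. These summed to 4493 CPM in the 84 control nuclei with Ucp1 or Cidea and 1819 CPM in the 55 without, a log2 ratio of 1.30 (1.07 to 1.54). Of 14 members with at least 20 UMIs, 13 were higher in the class with them and 9 at least 2-fold higher, where 8.57% of all 2403 genes were. The median over these members was 1.27, against 0.07 over all genes. The control classes had like depth, with medians of 1951.5 UMIs with and 1928 without Ucp1 or Cidea. The difference was smaller with every barcode thinned before selection, which also changes the members and their classes. It was then 0.26 (-0.02 to 0.55) at 1000 UMIs and 0.41 (-0.09 to 0.92) at 500 UMIs, both including 0. With only the chosen nuclei thinned to 1000 UMIs, and the classes kept, it was 0.96 (0.65 to 1.28).

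In the CF-KI library the thermogenic levels of the classes lay close together. The list stood at 3565 CPM in the 48 nuclei with Ucp1 or Cidea and 3647 CPM in the 32 without, a log2 ratio of -0.03 (-0.30 to 0.23). Of 9 members with enough UMIs, 4 were higher and 5 lower, and none was 2-fold apart, where 6.19% of all 1018 genes were higher by that much and 4.91% lower. Per nucleus, the median of the summed list was 3570 CPM (with) and 3510 CPM (without) in CF-KI, and 4325 and 1359 CPM in control. Control nuclei without Ucp1 or Cidea thus had the lowest thermogenic level of the 4 classes.

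**Figure D2:**
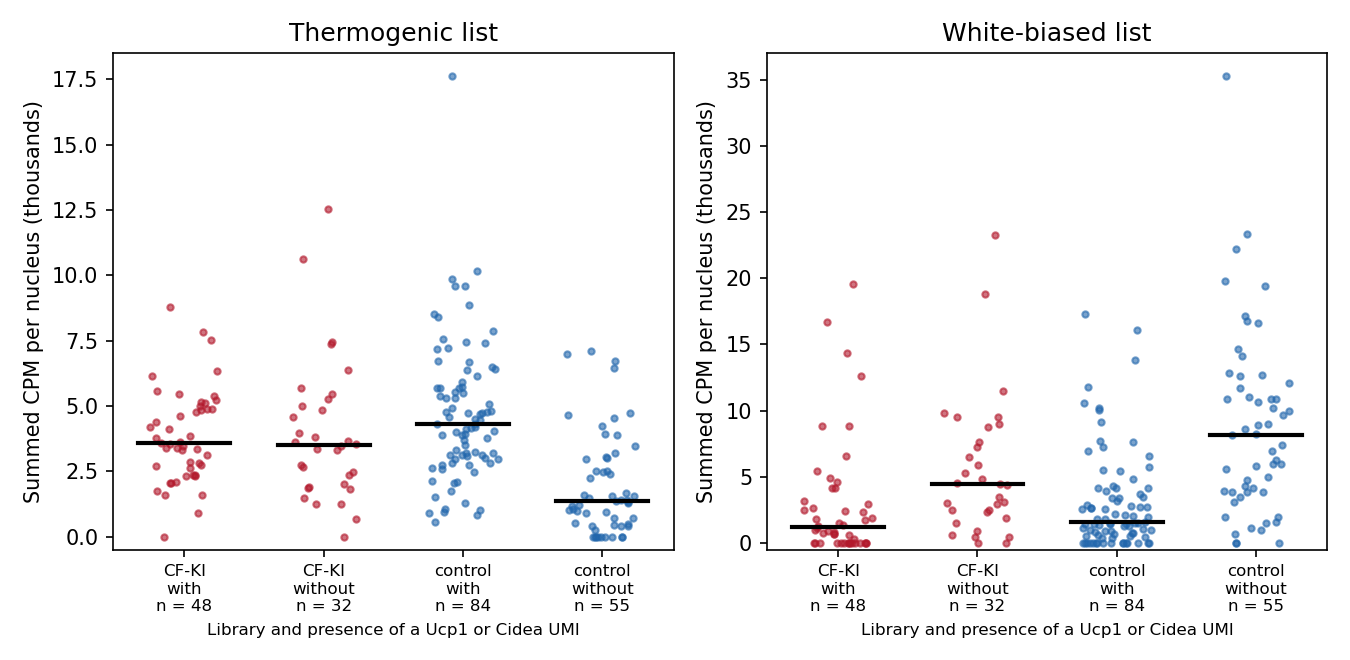
Summed CPM per nucleus (axis in units of 1000 CPM) of the thermogenic and the white-biased list for each adipocyte nucleus, by library and presence of a Ucp1 or Cidea UMI. Points are nuclei and lines are medians, and the thermogenic median of control nuclei without Ucp1 or Cidea is 1359 CPM where the other classes lie between 3510 and 4325 CPM.

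Pank1, a coenzyme A synthesis gene and PPARA target, led the difference in control, at 477 CPM with Ucp1 or Cidea and 47.6 CPM without, a log2 ratio of 3.33 (2.05 to 4.99). In CF-KI it stood at 159 and 199.6 CPM, a log2 ratio of -0.33. Gk stood at 253 and 47.6 CPM in control (2.41, 1.08 to 4.10) and at 98.0 and 90.7 CPM in CF-KI (0.11). The classes stood apart for both genes in control and not in CF-KI, and this difference between libraries was not tested. Cpt1b, the carnitine transferase that admits fatty acids to mitochondria, was at 443 and 133 CPM in control against 269.5 and 199.6 CPM in CF-KI. Ppara, the receptor that drives oxidation genes, was at 311 and 95.3 CPM in control against 233 and 236 CPM in CF-KI.

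The coactivator Ppargc1a had the same ratio between the classes in both libraries at different levels. It stood at 305 with and 162 CPM without Ucp1 or Cidea in control, and at 478 and 254 CPM in CF-KI, with a log2 ratio of 0.91 in each (0.10 to 1.79 in control and 0.00 to 1.91 in CF-KI). In the other barcodes it stood at 480.1 CPM in control and 319.9 CPM in CF-KI. Its relative Ppargc1b was at 886 and 448 CPM in control and 429 and 399 CPM in CF-KI. Kcnk3, a potassium channel of brown adipocytes, had a log2 ratio of 1.44 in control (207 and 76.2 CPM), and Letmd1, a mitochondrial gene needed for brown fat function, 1.47 (132 and 47.6 CPM). Cox8b, a cytochrome oxidase subunit found in brown fat and heart, was at 184 and 85.7 CPM in control and at 233 and 417 CPM in CF-KI, against 105 and 334 CPM in the other barcodes of control and CF-KI. Ebf2, a transcription factor of the brown lineage, was the control member that was not higher, at 104 and 114 CPM.

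Targets of PPARA were also higher in the class with Ucp1 or Cidea in control. The list of 22 oxidation genes had a log2 ratio of 0.75 (0.57 to 0.93) in control, where 12 of 14 members were higher in nuclei with Ucp1 or Cidea and 4 at least 2-fold higher, against 8.57% of all 2403 genes. In CF-KI it was 0.03 (-0.18 to 0.25), with 7 of 12 members higher, and the difference between the libraries was not tested. Slc25a20, the mitochondrial carnitine carrier, stood at 374 and 124 CPM in control, a log2 ratio of 1.59, and at 184 and 381 CPM in CF-KI, a log2 ratio of -1.05 (-2.11 to -0.03). Pdk4, which spares glucose when fat is burned, stood at 351 and 124 CPM in control, and Hadha, a subunit of the trifunctional protein of beta-oxidation, at 938 and 476 CPM. Cpt1b belongs to both lists. In the other control barcodes Slc25a20, Pdk4, Hadha and Cpt1b stood at 35.3, 42.1, 323 and 125 CPM.

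**Figure D3:**
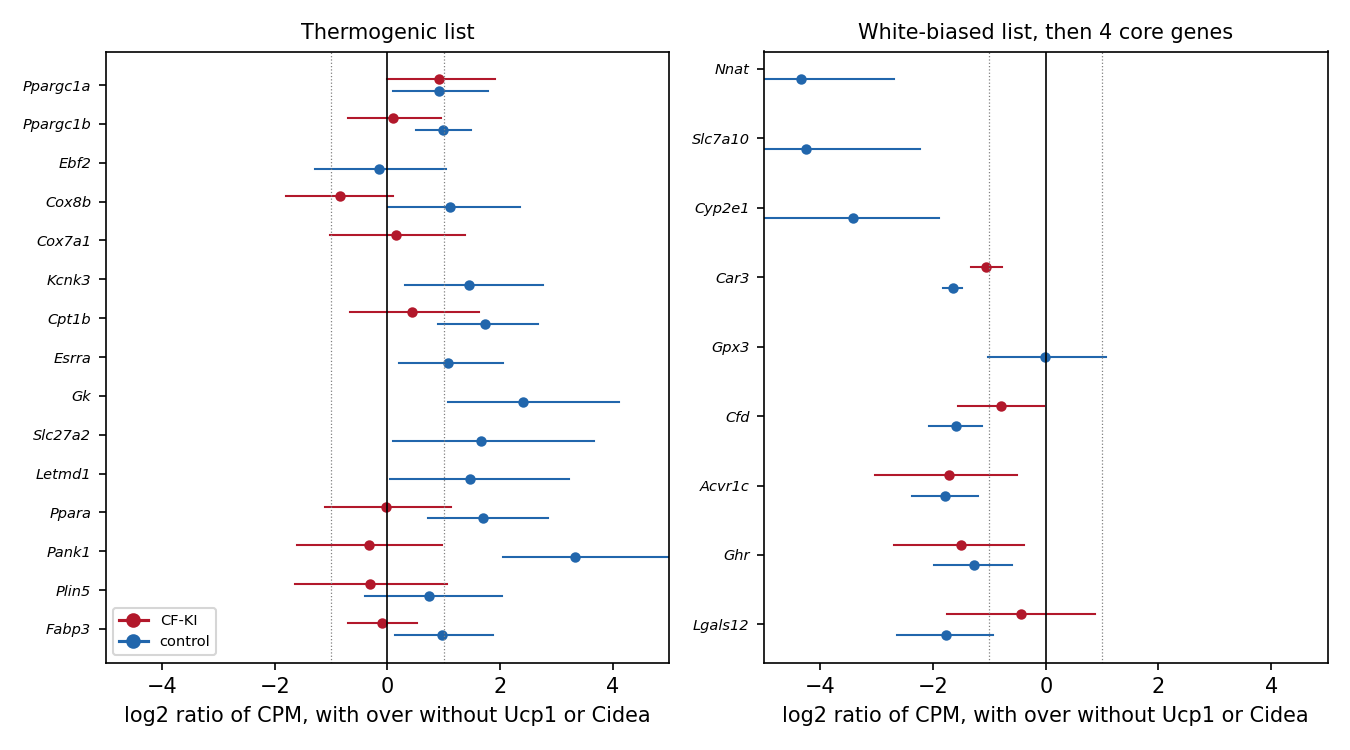
Log2 ratio of CPM between nuclei with and without Ucp1 or Cidea UMIs for genes of the lists, with 95% counting intervals, for the CF-KI and control libraries. Dotted lines mark 2-fold, and in control Pank1 lies at 3.33 and Car3 at -1.66, against -0.33 and -1.06 in CF-KI.

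White-biased genes summed higher in the nuclei without Ucp1 or Cidea in both libraries, in CF-KI on the strength of Car3, the 1 member of 18 with enough UMIs there. The white-biased list of 18 genes summed to 2634 CPM with and 5152 CPM without in CF-KI (-0.97, -1.23 to -0.71), and to 2888 and 9439.8 CPM in control (-1.71, -1.87 to -1.55). In control, 5 members had enough UMIs, and 4 were lower by 2-fold in the class with Ucp1 or Cidea, where 5.41% of all genes were. The other member, Gpx3, a secreted glutathione peroxidase, stood at 132 and 133 CPM. Most of the sum was Car3, a carbonic anhydrase abundant in white fat. It stood at 2279 and 4735 CPM in CF-KI, a log2 ratio of -1.06 (-1.33 to -0.78), and at 2618 and 8249 CPM in control, a log2 ratio of -1.66 (-1.82 to -1.49).

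The other white-biased genes rested on few UMIs. Nnat, neuronatin, had 3 UMIs in control nuclei with Ucp1 or Cidea and 37 in those without, a log2 ratio of -4.35 (-6.69 to -2.69), and 0 against 3 UMIs in CF-KI. Slc7a10, an amino acid transporter of white adipocytes, was at 11.5 and 219 CPM in control (-4.25, -7.38 to -2.23) and 24.5 and 109 CPM in CF-KI (-2.15, -5.49 to 0.33). Cyp2e1 was at 23.0 and 248 CPM in control, and Retn, the resistin gene, had 1 against 14 UMIs there but 6 against 3 in CF-KI, with all 6 in 1 nucleus. Cyp2e1 had 1 against 5 UMIs in CF-KI. None of these 4 genes had the 20 UMIs needed in CF-KI, so a difference there was not detectable at this depth.

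Several general adipocyte genes followed the white-biased list. Cfd, the adipsin gene, stood at 355 CPM with and 617 CPM without Ucp1 or Cidea in CF-KI, and at 357 and 1076 CPM in control. Acvr1c, the ALK7 receptor that restrains lipolysis, stood at 110.3 and 363 CPM in CF-KI and 219 and 753 CPM in control, with log2 ratios of -1.72 and -1.78. Ghr, the growth hormone receptor, was at 135 and 381 CPM and at 184 and 448 CPM. All of these were lower in the class with Ucp1 or Cidea, in either library. Adrb3 was also lower there, at 809 and 1288 CPM in CF-KI and 863 and 1353 CPM in control. Across the core list, 13 of 18 members in CF-KI and 12 of 19 in control were lower in nuclei with Ucp1 or Cidea. Of all genes, 486 of 1018 in CF-KI and 1110 of 2403 in control were lower. The list log2 ratios were -0.35 and -0.17.

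Outside the lists, 877 genes had enough UMIs in both libraries and 467 had the same sign in both. Atp5g1, a subunit of ATP synthase, had log2 ratios of 1.37 in CF-KI and 1.55 in control, and Mpc1, the mitochondrial pyruvate carrier, had 1.34 and 1.57. Adra1a, an alpha-1 adrenergic receptor, had 1.43 and 1.00. The highest genes also included Eef1a1, Dag1, Fam53b, R3hdm1, Rps4x, Rps9 and Map1lc3b. On the other side were Apol6 (-1.77 and -2.15), Xdh, xanthine dehydrogenase (-2.57 and -1.17), and Lama4, a basement membrane laminin (-1.27 and -1.04). B3galt2, Phip, Lpar6, Ankef1, Swt1, Zfyve16 and Clk1 were also among the lowest. These were named by the size and shared sign of their differences, so the agreement in sign is fixed by the choice.

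The white-biased list was graded with the number of Ucp1 and Cidea UMIs in control. For 0, 1, 2 and at least 3 UMIs (55, 33, 16 and 35 nuclei) it stood at 9439.8, 3833, 2959.7 and 2009 CPM in control. In CF-KI (32, 32, 7 and 9 nuclei) it stood at 5152, 2367, 3051 and 3459 CPM, without such an order. The thermogenic list went from 1819 to 4212, 4921 and 4583 CPM in control, where the first UMI marked most of the difference. In CF-KI it stayed between 3432 and 3858 CPM.

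**Figure D4:**
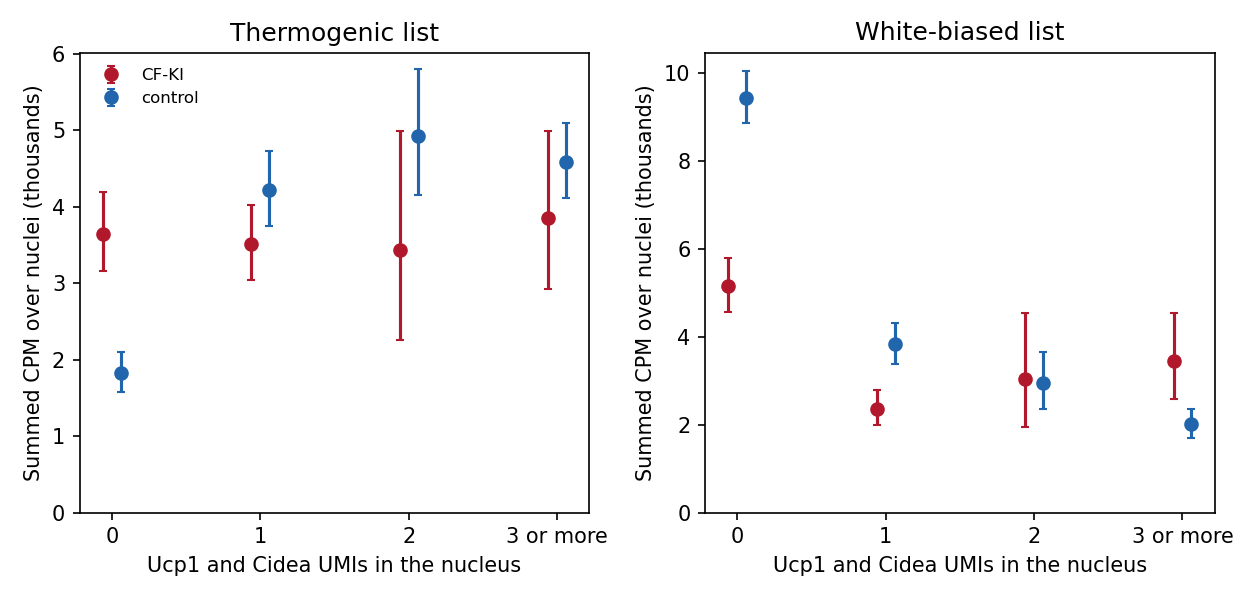
Summed CPM (axis in units of 1000 CPM) of the thermogenic and white-biased lists over nuclei with 0, 1, 2 or at least 3 Ucp1 and Cidea UMIs, by library, with 95% Poisson intervals. In control the white-biased list goes from 9439.8 to 2009 CPM, and the thermogenic list of CF-KI stays between 3432 and 3858 CPM.

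RNA of other cell types differed between the libraries within these nuclei. The 12 cardiomyocyte markers came to 19607 CPM in adipocyte nuclei of CF-KI against 6047 CPM in those of control, and each was at least 2-fold higher in CF-KI. In CF-KI, 14.2% of these UMIs lay in 1 nucleus of the class with Ucp1 or Cidea. The median nucleus had 14856 and 3586 CPM, while the other barcodes had 32694 and 24060 CPM. In CF-KI the markers stood at 23157 CPM with and 14350 CPM without Ucp1 or Cidea, with medians per nucleus of 15548 and 14160 CPM, and in control at 6202 and 5792 CPM. Fibroblast markers summed to 3335 and 2317 CPM, endothelial markers to 599.7 and 219 CPM and hemoglobin genes to 1031 and 384 CPM. In control the fibroblast markers were higher in the class without Ucp1 or Cidea, like the white-biased list, at 3239 against 1760 CPM (with over without -0.88, -1.11 to -0.65), and all 7 with enough UMIs were. Endothelial markers were at 324 against 155 CPM and Schwann cell markers at 200.04 against 63.3 CPM there. In CF-KI the fibroblast markers were at 3084 CPM without and 3504 CPM with Ucp1 or Cidea. Airway markers were at 0 in CF-KI and at 2331 CPM in control, 81.7% of it from 1 nucleus, and the smooth muscle gene Myh11 was at 0 in both. The part of this RNA in the differences between classes and libraries was not tested.

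Restricting the thermogenic list to members at least 2-fold above the other barcodes in both libraries, a choice made after seeing the data, gave a log2 ratio between the classes of 1.55 (1.25 to 1.86) in control and -0.01 (-0.40 to 0.39) in CF-KI. As a stand-in for free RNA, whose own profile was not measured, the mean profile of all deposited barcodes of the library was subtracted. It was scaled by the level of cardiomyocyte markers and includes RNA of intact nuclei. This gave 1.59 in control, at scales of 28.5% with and 23.2% without Ucp1 or Cidea. In CF-KI it gave 0.14, at 56.4% and 37.8%. For all adipocyte nuclei the scale was 50.4% in CF-KI and 25.4% in control.

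Between genotypes, the core adipocyte genes lay close together. Over the 3646 genes with at least 20 UMIs, 9.24% were at least 2-fold higher in CF-KI adipocyte nuclei and 9.0% at least 2-fold lower, with a median log2 ratio of -0.06. In the other kept barcodes, 3.24% of 16089 genes were 2-fold higher in CF-KI and 4.97% lower. None of the 20 core adipocyte genes was 2-fold apart in either direction, and their sums were 16279 CPM in CF-KI and 17277 CPM in control. The count of genes past 2-fold is a description of 2 libraries, and the minimum of UMIs set much of it: 51 genes passed at a minimum of 100 UMIs against 665 here.

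Nlrp3, the gene altered in CF-KI, had 0 UMIs in the adipocyte nuclei of either library. With 80 and 139 nuclei a count of 0, taken as up to 3 nuclei, allows a share with a UMI of up to 3.75% and 2.16%, which at this depth does not limit the share of nuclei that express the gene. In the other kept barcodes Nlrp3 had 39 UMIs in CF-KI (2.53 CPM) and 20 in control (1.24 CPM). Casp1, Il1a, Il1rn and Il6 were also at 0, Il1b had 0 and 1 UMIs, and Il18 had 1 and 0. Of the 18 inflammasome and interleukin-1 genes only 2 had enough UMIs for a ratio. Txnip, a thioredoxin inhibitor that can bind NLRP3, stood at 943 CPM in CF-KI and 466 CPM in control (1.02, 0.65 to 1.38), against 389 and 463 CPM in the other barcodes. Pycard, the ASC adaptor, stood at 29.3 and 86.1 CPM. Tcf21, whose locus drives the Cre, had 1 UMI in CF-KI and 2 in control adipocyte nuclei.

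More fatty acid synthesis genes were higher than lower in CF-KI under the main selection, with exceptions among their regulators. Of 19 lipogenic genes with enough UMIs, 13 were higher and 6 lower, where 1709 of all 3646 genes were higher. On each side 2 were past 2-fold, near the 9.24% and 9.0% of all genes. The median log2 ratio was 0.43. The list's sum was 10524 CPM for CF-KI against 9559 CPM for control, a log2 ratio of 0.14 (0.05 to 0.23). The classes differed: it was 0.39 (0.24 to 0.54) in nuclei without Ucp1 or Cidea and -0.02 (-0.14 to 0.10) in nuclei with them. This difference between the classes was not tested. The sign of the ratio over all adipocyte nuclei depended on the selection: with at least 2 markers it was -0.20, without the exclusion genes -0.045, and without doublets 0.39.

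Acly, which makes cytosolic acetyl-CoA from citrate, stood at 402 CPM in CF-KI and 176 CPM in control (1.19, 0.61 to 1.78). Acaca, the acetyl-CoA carboxylase of fatty acid synthesis, stood at 1704 and 1263 CPM. Fasn stood at 1836 and 1259 CPM (0.54, 0.30 to 0.78), but it was also higher in the other CF-KI barcodes, at 40.6 against 24.1 CPM. Successive steps of the synthesis pathway were thus higher in CF-KI. Acss2 was at 519 and 319 CPM and Agpat2, which makes phosphatidic acid, at 490.0 and 326 CPM. On the lower side, Acacb, the mitochondrial carboxylase that restrains fat oxidation, stood at 314 and 660.0 CPM (-1.07, -1.58 to -0.58). The transcription factors Mlxipl (ChREBP) and Srebf1 stood at 1207 against 1718 CPM and 65.8 against 136 CPM (-1.05, -2.28 to 0.02).

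Lipolysis genes had no settled direction as a list. Of 13 members with enough UMIs, 4 were higher and 9 lower in CF-KI, with a median log2 ratio of -0.28, and 1 was lower by 2-fold, near the 9.0% of all genes. With the scaled library profile subtracted the list stood at 0.45 (0.33 to 0.57). Lipe stood at 417 CPM in CF-KI and 681 CPM in control (-0.71, -1.16 to -0.28), and in the other barcodes its log2 ratio was -0.07. Pde3b, the phosphodiesterase through which insulin blunts lipolysis, stood at 293 and 552 CPM, a log2 ratio of -0.92 against -0.21 elsewhere. Mgll, the monoglyceride lipase, was at 256 and 387 CPM, while it was higher in other CF-KI barcodes (0.40). Adcy3, an adenylyl cyclase, had 2 UMIs in CF-KI and 21 in control. The receptor Adrb3 (1002 and 1047 CPM) and the first lipase Pnpla2 (212 and 240.3 CPM) lay within counting error. G0s2, the inhibitor of that lipase, stood at 1996 and 1428 CPM (0.48), and the droplet coat gene Plin2 at 899.5 and 664 CPM (0.44), with ratios near 0 in the other barcodes. The summed list was 6538 and 6937 CPM, and without doublets its log2 ratio was 0.11 where it was -0.09 with them.

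**Figure D5:**
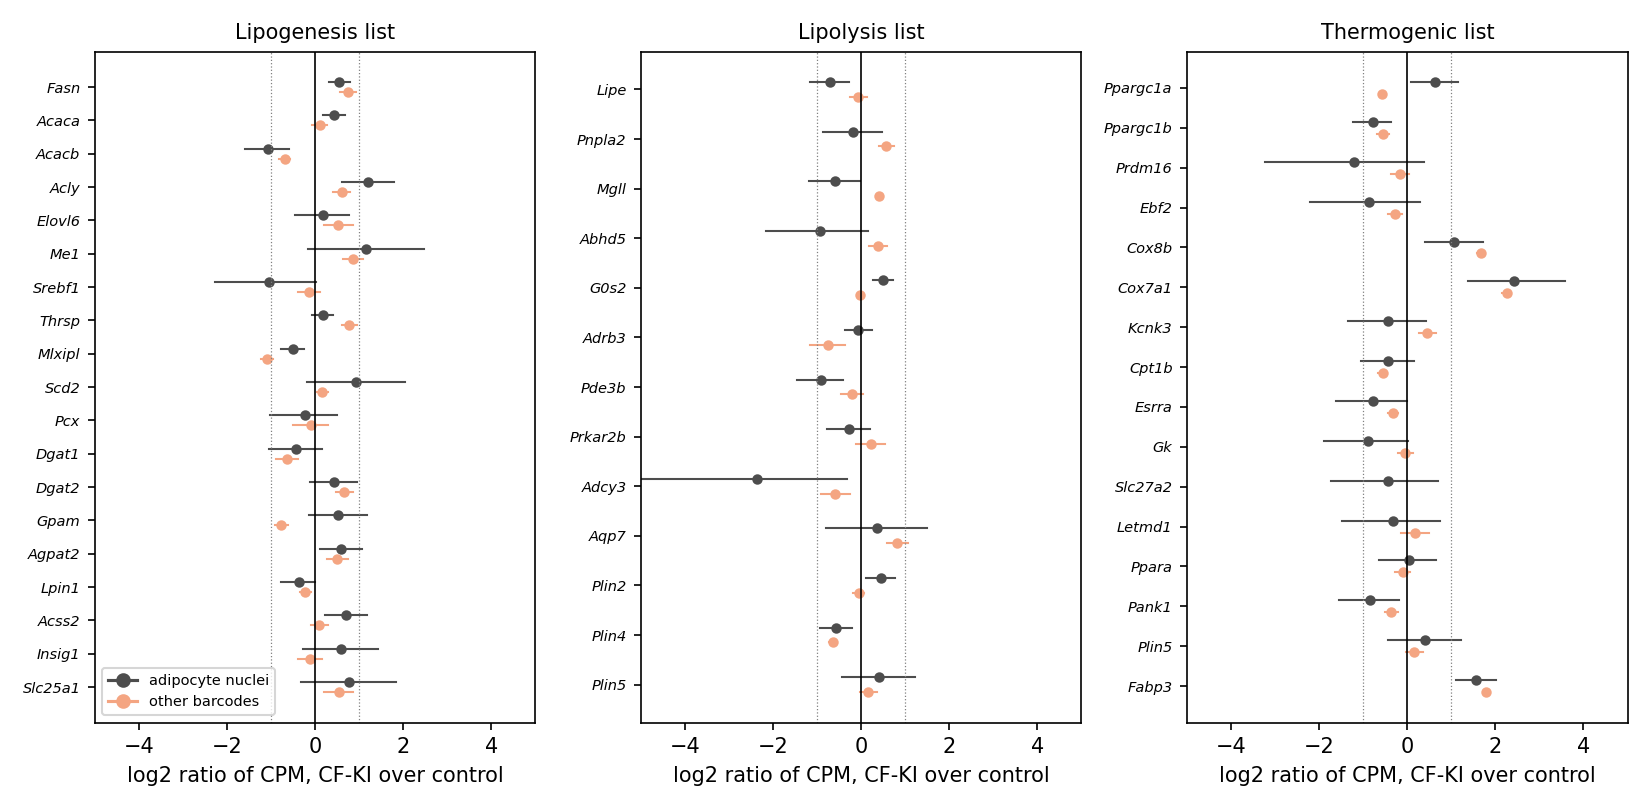
Log2 ratio of CPM, CF-KI over control, for genes of the lists with at least 20 UMIs in adipocyte nuclei and the same genes in the other kept barcodes, with 95% counting intervals. Acly lies at 1.19 and Lipe at -0.71 in adipocyte nuclei, and for Lipe the other barcodes lie at -0.07.

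The thermogenic sum was 3598 CPM for CF-KI against 3486 CPM for control, a log2 ratio of 0.05 (-0.11 to 0.20) that joined opposite parts. Of 16 members with enough UMIs, 6 were higher, 3 of them by 2-fold, where 9.24% of all 3646 genes were. The 3 were Cox7a1 (212 and 39.5 CPM, 2.43), Fabp3 (717 and 244 CPM, 1.56) and Cox8b (307 and 147 CPM, 1.06). These oxidation genes of muscle and brown fat were also higher in the other CF-KI barcodes, with log2 ratios of 2.25, 1.78 and 1.67. The other 10 members were lower in CF-KI, among them Ppargc1b (417 and 721 CPM), Pank1 (176 and 316 CPM) and Esrra (132 and 226 CPM). Kept to members well above the other barcodes, the list had a log2 ratio of -0.48 (-0.71 to -0.26). Without doublets the whole list was at 0.24 (0.07 to 0.41), and with the scaled library profile subtracted at 0.077 (-0.12 to 0.27).

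The genotypes differed in opposite directions in the classes. In nuclei without Ucp1 or Cidea, the thermogenic list was at 3647 CPM in CF-KI and 1819 CPM in control (1.00, 0.71 to 1.30), with 5 of 7 members higher and 3 of them 2-fold, where 11.5% of all 1179 genes were (11.4% were lower by 2-fold). In nuclei with them it was at 3565 and 4493 CPM (-0.33, -0.53 to -0.14), with 5 of 15 members higher and 10 lower, 2 and 6 of them by 2-fold, where 10.6% of all 2238 genes were in each direction. In the class without, Pank1 stood at 199.6 and 47.6 CPM, Fabp3 at 744 and 152 CPM, and Slc25a20 at 381 and 124 CPM. Fabp3 in the other barcodes stood at 1112 and 324 CPM, while Pank1 was at 41.9 and 53.8 CPM there. Cardiomyocyte markers stood at 14350 and 5792 CPM in that class, and their part in these values was not tested. The white-biased list was lower in CF-KI in the class without (-0.87, -1.07 to -0.68) and near level in the class with (-0.13). Car3 in the class without stood at 4735 and 8249 CPM.

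In the insulin and glucose list, 6 of 12 genes were higher and 6 lower, with a median of -0.13. Hk2, the hexokinase of insulin-sensitive tissues, stood at 1967 CPM in CF-KI and 1047 CPM in control (0.91, 0.67 to 1.15), and at 218 and 133 CPM in the other barcodes. Pik3r1, the regulatory subunit of PI3-kinase, stood at 351 and 728 CPM (-1.05, -1.54 to -0.59), against a log2 ratio of -0.21 elsewhere. The 22 PPARA targets summed to 5573 and 4795 CPM (0.22, 0.09 to 0.35), with 10 of 15 members higher, where 1709 of all 3646 genes were. In nuclei without Ucp1 or Cidea their log2 ratio was 0.71 (0.48 to 0.93), and in nuclei with them -0.01 (-0.17 to 0.15). This difference between the classes was not tested. Over all adipocyte nuclei the log2 ratio was -0.00441 with at least 2 markers and 0.080 (-0.032 to 0.19) with no exclusion. Hadhb and Acadvl, enzymes of beta-oxidation, were higher in adipocyte nuclei (0.78 and 0.83) and in the other barcodes (0.81 and 1.15). Ucp3, a muscle uncoupling protein, was lower in both (-1.74 and -2.56).

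Outside the lists, the genes highest in CF-KI over control were led by Ptgds, a prostaglandin D synthase, at 139 and 14.3 CPM (3.28), followed by Gm10125 (3.20), Ndufb1-ps (2.92), Rpl27 (2.76), Palld (2.71), Prune2 (2.67), Myl4 (2.55), and Ramp2, Dsp and Atcayos (2.53 each). Myl4, an atrial myosin light chain, had 87% of its CF-KI UMIs in 1 nucleus, and Dsp, a desmosome gene of heart muscle, stood at 205 and 110.5 CPM in the other barcodes. Counts of Ndufb1-ps and Rpl27 can be divided among related copies, and Atcayos is named as an opposite-strand transcript. The lowest was Baiap2, a regulator of the actin skeleton, with 2 UMIs in CF-KI and 35 in control (-3.10, -6.20 to -1.14). Anapc16 (-2.83, -5.94 to -0.85), 2900052L18Rik and Gga2 (-2.78, -5.89 to -0.79 each) also rested on 2 UMIs in CF-KI. Cul9 (-2.34, -4.70 to -0.66), Pcyt1a and Vmp1 (-2.19, -4.56 to -0.50 each) rested on 3. Ddx3x, an RNA helicase (-2.38), and Net1, an exchange factor for RhoA (-2.35), had 5 UMIs each in CF-KI against 53 and 52 in control.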

How the data were processed

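Nuclear RNA of 1 CF-KI and 1 control library was counted by the authors with Cell Ranger 6.1.1 on mm10, per the submitters' processing notes, and deposited as raw UMI counts per gene and barcode. The settings of cell calling are not given in the sources used here. The 32285 features were summed to 32245 symbols. Adipocyte nuclei were chosen as stated at the opening. Members and gene lists were chosen with earlier results of these data known.

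Counts were pooled over nuclei of a library and class (Python 3.11.15, scipy 1.17.1). CPM have exact Poisson intervals, shares exact binomial (Clopper-Pearson) intervals, share differences square-and-add intervals and log2 ratios conditional exact binomial intervals, all at 95%. Ratios and 2-fold calls needed 20 UMIs over both sides, and counts under 3 were set to 3 for calls. For adipocyte nuclei against other barcodes, a gene also needed at least 3 UMIs, observed or expected, in the adipocyte nuclei. With 1 library per genotype no test was run. Named genes were selection markers, list members, and beyond the lists the 10 highest or lowest log2 ratios, of which 1 gene is not reported here. Scrublet ran in scanpy 1.11.5. Other scalings were TMM (edgeR 4.0.16) and DESeq2 1.42.0 size factors. Scripts were tested on simulated data.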

Additional observations from a re-analysis of the deposited data

Results flagged for a closer look

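In 2 of 12 lists and 3 of 75 genes compared, the difference between nuclei with and without Ucp1 or Cidea had opposite signs in the libraries, with both counting intervals clear of 0. The lipogenesis list had a log2 ratio of -0.20 in CF-KI and 0.21 in control, and the fatty acid uptake list -0.31 and 0.14. Fabp4 had -0.40 and 0.24, Pck1 -0.57 and 0.48, and Slc25a20, the carnitine carrier, -1.05 and 1.59. Pck1 is also a selection marker. Nuclei without Ucp1 and Cidea had to reach 3 markers from the remaining ones, so the rule itself affects the difference of Pck1 between the classes. The difference between the libraries was not tested, since each is 1 library.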

How the results depend on the processing

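Across 15 results and 20 alternatives, 258 combinations gave a value, 222 of them near the main one. Log2 ratios of lists, CF-KI over control, turned sign for lipogenesis with at least 2 markers (-0.20) or no exclusion (-0.045) and for PPARA targets with at least 2 markers (0.00, -0.00441 unrounded). With no exclusion, thermogenic genes were at -0.13, lipolysis -0.32 and PPARA targets 0.080. Lipolysis was at -0.41 with at least 2 markers, and thermogenic genes at -0.15 with at least 4. Without doublets, which left out 15 CF-KI and 0 control nuclei, thermogenic genes were at 0.24, lipogenesis 0.39, lipolysis 0.11 and PPARA targets 0.45. With the scaled library profile subtracted, lipogenesis was at 0.71, lipolysis 0.45 and PPARA targets 0.60. Thinned to 1000 UMIs, lipogenesis was at 0.25 and lipolysis 0.046, and at 500 UMIs thermogenic genes were at -0.18. Lipogenesis was at 0.31 with no exclusion UMI and 0.24 with each nucleus weighted equally, and thermogenic genes at -0.48 among members well above the other barcodes. With over without Ucp1 or Cidea, thermogenic genes were at -0.36 in CF-KI with at least 2 markers. In control they were at 0.41 (500 UMIs), 0.26 (1000 UMIs), 0.96 (the same nuclei at 1000 UMIs) and 0.98 (at least 100 UMIs per gene). They were at 1.59 there with the scaled library profile subtracted and at 1.55 among members well above the other barcodes. The share difference was -0.119 points at 5% mitochondrial UMIs and -0.315 at 500 UMIs. Genes past 2-fold numbered 44 at 500 UMIs, 270 at 1000, 7100 with at least 1 UMI per gene and 51 with at least 100. The cause of these shifts was not tested. Equal weighting, thinning of the same nuclei, the restricted list and leaving out the nuclei richest in other cells' RNA were chosen after seeing the data. In CF-KI the split of thermogenic genes gave no value at 100 UMIs per gene. No paired analysis was possible because each genotype had 1 library. Over all adipocyte nuclei of a library, a level under 21.9 CPM in CF-KI or 10.8 CPM in control cannot be told from 0. The limit is higher within a class, which holds fewer UMIs, and lower in the other barcodes.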

Other observations

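Genes of the immediate early and heat shock response stood lower in adipocyte nuclei than in the other barcodes in both libraries, at 1155 against 2693 CPM in CF-KI and 936 against 2143 CPM in control. Between genotypes, 6 of 7 such genes with enough UMIs were higher in CF-KI, with a median log2 ratio of 0.57. In the other barcodes 15 of 18 were higher, and the summed log2 ratio was 0.33 there and 0.30 in adipocyte nuclei. Circadian clock genes were divided, with 6 of 10 higher in CF-KI and a median of 0.12. Adipokine genes came to 2413 CPM in adipocyte nuclei of CF-KI against 2604 CPM in those of control. Vegfa, the vascular growth factor, made up much of that sum, at 870.3 and 897 CPM, and in control it stood at 1070.0 CPM with and 609.6 CPM without Ucp1 or Cidea (0.81, 0.39 to 1.24). Rbp4, the retinol carrier, was at 80.4 and 17.9 CPM on 11 and 5 UMIs, below the minimum used for ratios.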
